A study of Mus musculus with 18 samples.

Results

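The 15 probes described here had higher quantile-normalized signals in T cells sorted from spleen than in T cells from brown adipose tissue (BAT). This held on every array and in both T cell types, because the probes were chosen so. With median scaling alone, 3 of the 15 kept every spleen array above every BAT array. One of the 15, ILMN_2668124, was detected on only 4 of 6 spleen arrays. The 15 were chosen from 45267 regular probes by their measured values. The deposited signals of 18 arrays were put on the log2 scale and quantile-normalized together without background correction, here called the rule scale. A probe was kept when its highest BAT array lay below its lowest spleen array and its mean difference was at least 0.5. This left 80 probes after the first condition and 21 after the second. A further 6 probes, in which Treg and Tconv arrays did not overlap in warm BAT and also did not overlap in cold BAT, were removed. The same conditions turned the other way gave 157, 136 and finally 108 probes that were higher in BAT. Because the choice used the BAT and spleen values of all 18 arrays, the difference between the tissues is a description of the 15 probes and carries no test.

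The study compared regulatory T cells (Treg, labelled CD4+CD25+Foxp3+) and conventional T cells (Tconv, labelled CD4+Foxp3-) in 6 groups of 3 arrays. The sources of both cell types were BAT of mice housed at 30°C (warm), BAT of mice exposed to 12°C (cold) and spleen of warm mice, so there was no spleen of cold mice. Per the labels all mice were C57BL/6 carrying Foxp3-GFP-DTR-CD90.1, an allele that marks Foxp3-expressing cells, whereas the study's methods describe wild-type C57Bl6 mice and a sort on CD4 and CD25. The cold exposure lasted 2 days and the warm acclimatization 2 weeks, per the methods. Organs were pooled before sorting, and nothing in the labels says which arrays came from separate pools, so the p-values measure the spread between these arrays, which may be partly technical.

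Treg cells are CD4+ T cells that restrain immune responses and depend on the transcription factor Foxp3, whereas Tconv cells carry out helper functions. The spleen holds large numbers of circulating and resting lymphocytes. BAT is a heat-producing fat depot that is switched on by cold, and the T cells in it are few and live among adipocytes, vessels and other leukocytes.

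The table pairs no probe with a gene, and the reference tables hold no probe identifiers of this array, so the 15 probes are named by their identifiers, and neither their genes, their sequences nor markers of T cells or of other cell types could be examined. Warm BAT, cold BAT and spleen were each hybridized on a BeadChip of their own, so tissue or temperature and BeadChip cannot be told apart. The Treg and Tconv arrays of each of these 3 sources shared a BeadChip. On every BeadChip the Tconv arrays had positions A to C and the Treg arrays D to F, so cell type and position cannot be told apart. The share of regular probes with a detection p-value under 0.05 was 35.7% to 42.2% on BAT arrays and 27.8% to 35.1% on spleen arrays, and the median signal before normalization was 105 to 149 in BAT and 115 to 159 in spleen. Whether this difference in detection has a part in the choice of the 15 probes was not tested.

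Of the 15 probes, 13 were detected (detection p-value under 0.05) on each of the 18 arrays. Their mean differences on the rule scale ranged from 0.50 to 1.06, which is 1.42-fold to 2.08-fold in signals without background correction. The size depended on the scale. With background correction and quantile normalization these 13 ran from 0.57 to 1.79, and with median scaling alone from 0.20 to 0.73. On the rule scale the median over all 15 probes was 0.62, against 0.02 over all regular probes. The other two, ILMN_2668124 and ILMN_2874291, were near background in BAT. In bulk RNA of sorted cells, fewer cells that express a gene and less of its RNA per cell cannot be told apart.

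ILMN_3052501 was the most clearly separated of the 15 probes. On the rule scale its spleen Tconv arrays were at 8.76, 9.11 and 9.29 and its spleen Treg arrays at 8.98, 9.07 and 9.05. The 12 BAT arrays had a lowest value of 7.62, a median of 8.00 and a highest of 8.30. The mean difference was 1.06 and the gap between the nearest arrays of the tissues was 0.46, the widest gap of the 15. Within BAT, the group means were 7.92 ± 0.21 in warm Tconv, 8.15 ± 0.21 in warm Treg, 7.97 ± 0.23 in cold Tconv and 7.91 ± 0.25 in cold Treg (SD, n = 3 each), and the arrays of these groups overlapped.

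ILMN_1246744 had the second widest gap, of 0.24. Its spleen Tconv arrays were at 11.09, 11.12 and 10.80 and its spleen Treg arrays at 10.82, 11.22 and 10.76. The BAT arrays ran from 9.18 through a median of 10.21 to 10.52. The lowest BAT value, of 9.18, came from 1 warm Tconv array, and the other two arrays of that group were at 10.24 and 10.27, near the rest of BAT. The mean difference between the tissues was 0.81.

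ILMN_2561533 had a mean difference of 0.81 as well, with more scatter in BAT. Its spleen arrays were at 10.15, 10.02 and 10.42 in Tconv and at 10.08, 9.91 and 9.81 in Treg. The BAT arrays ran from 8.57 through a median of 9.26 to 9.71, so that the gap was 0.10. The BAT Treg means of 9.01 ± 0.27 in the warm and 9.04 ± 0.44 in the cold stood below the BAT Tconv means of 9.47 ± 0.37 and 9.51 ± 0.17 (SD, n = 3 each), with overlapping arrays in both.

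ILMN_1222715 was the probe with the smallest p-value in spleen Treg against Tconv and in cold against warm BAT Treg, both tested further on. Its spleen arrays were at 9.42, 9.60 and 9.31 in Tconv and at 9.26, 8.85 and 8.86 in Treg, without overlap. In warm BAT the Tconv arrays were at 8.29, 8.57 and 8.78 and the Treg arrays at 8.13, 8.16 and 8.17. In cold BAT the Tconv arrays were at 8.65, 8.64 and 8.63 and the Treg arrays at 8.41, 8.67 and 8.61. Treg arrays were thus the lower ones in spleen and warm BAT, and the cell types overlapped in cold BAT. The mean difference between spleen and BAT was 0.74 and the gap was 0.08.

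ILMN_1225488 had a mean difference of 0.73 and a gap of 0.07. Its spleen arrays were at 10.18, 9.74 and 9.69 in Tconv and at 10.06, 10.20 and 9.97 in Treg, and its BAT arrays ran from 8.80 through a median of 9.34 to 9.62. Cold BAT Treg arrays, at 8.93, 8.90 and 9.36, lay below cold BAT Tconv arrays, at 9.62, 9.52 and 9.48, while the cell types overlapped in warm BAT. The spleen array nearest to BAT was a Tconv array, and so was the nearest BAT array.

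ILMN_1257539 and ILMN_1244894 each had a mean difference of 0.62. For ILMN_1257539 the spleen arrays were at 8.56, 8.93 and 8.31 in Tconv and at 8.73, 9.01 and 9.02 in Treg, and BAT ran from 7.86 through a median of 8.14 to 8.30. A single spleen Tconv array, at 8.31, set its gap of 0.0091. For ILMN_1244894 the spleen arrays were at 9.10, 9.11 and 9.40 in Tconv and at 9.05, 9.17 and 9.07 in Treg. Its BAT arrays ran from 8.35 through a median of 8.50 to 8.96, and 1 cold BAT Tconv array, at 8.96, stood apart from the other 11 and set the gap of 0.09.

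ILMN_2530127 had a mean difference of 0.58 and a gap of 0.08. Its spleen arrays were at 9.48, 9.75 and 9.04 in Tconv and at 9.23, 9.28 and 9.09 in Treg, and BAT ran from 8.39 through a median of 8.76 to 8.96. Both the lowest and the highest spleen array were Tconv arrays. The lowest value in Tconv was close to the highest BAT array, which was a cold Tconv array.

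The remaining 5 probes had mean differences of 0.50 to 0.54 and gaps of 0.05 to 0.14. ILMN_1237333 was at 8.22, 7.97 and 8.26 in spleen Tconv and at 8.25, 8.39 and 8.17 in spleen Treg, against 7.53 to 7.85 in BAT with a median of 7.68. ILMN_1221341 was at 8.20, 8.33 and 7.93 in spleen Tconv and at 8.06, 7.96 and 7.91 in spleen Treg, against 7.28 to 7.77 in BAT with a median of 7.56. Both lay above the 95th percentile of the negative control probes on all 6 spleen arrays but on 9 and 7 of the 12 BAT arrays. ILMN_1239795 was at 10.93, 10.91 and 10.70 in spleen Tconv and at 10.90, 10.87 and 10.70 in spleen Treg, against 10.04 to 10.61 in BAT with a median of 10.40. ILMN_1254967 was at 8.05, 8.36 and 8.24 in spleen Tconv and at 7.89, 8.48 and 8.19 in spleen Treg, against 7.39 to 7.84 in BAT with a median of 7.73. ILMN_2540573 was at 10.31, 10.52 and 10.80 in spleen Tconv and at 10.29, 10.69 and 10.38 in spleen Treg, against 9.72 to 10.18 in BAT with a median of 10.02. In each of these 5 probes the spleen Treg and Tconv arrays overlapped.

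ILMN_2668124 and ILMN_2874291 entered the set with rule-scale differences of 1.34 and 0.95, which rested on the spleen arrays numbered 3 and, with BAT near background, are not measured folds. For ILMN_2668124 the spleen arrays 1, 2 and 3 were at 6.94, 7.76 and 11.34 in Tconv and at 7.50, 6.95 and 8.76 in Treg. Its BAT arrays ran from 6.76 through a median of 6.88 to 6.94. In each cell type 1 array, number 3, was thus far above the others, and the lowest spleen arrays were at the level of BAT, with a gap of 0.0054.

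For ILMN_2874291 the spleen arrays 1, 2 and 3 were at 7.32, 7.35 and 10.78 in Tconv and at 7.36, 7.40 and 8.44 in Treg, and BAT ran from 6.98 through a median of 7.15 to 7.29. Both probes lay above the 95th percentile of the negative control probes on 2 of 6 spleen arrays and on 0 of 12 BAT arrays. ILMN_2668124 was detected on 4 of 6 spleen arrays and 0 of 12 BAT arrays, and ILMN_2874291 on all 6 spleen arrays and 6 BAT arrays.

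Where all arrays of a BAT group were undetected, the spleen mean is given as a fold over a floor, on background-corrected signals. The floor was the lowest detected signal of any probe on each BAT array, or the probe's own signal where higher. For ILMN_2668124 the spleen Tconv mean was 5.35-fold over the warm BAT Tconv floor. Its spleen Treg mean was 2.34-fold over the warm BAT Treg floor. The lowest array of each spleen group, at 4.96 and 4.97, lay below these floors, at 5.10 and 5.085. For ILMN_2874291 the spleen Tconv mean was 4.16-fold over the warm BAT Tconv floor of 5.12, with arrays 1 and 2 at 5.40 and 5.45. These are not bounds that each array meets, and the means hold the spleen arrays numbered 3. Without those arrays the mean difference on the rule scale was 0.42 for ILMN_2668124 and 0.20 for ILMN_2874291, both under 0.5. Over all regular probes, 8 were more than 1 log2 unit above both other arrays on number 3 in spleen Treg and also in spleen Tconv, and these 2 were among them. The corresponding number was 28 for spleen arrays 1 and 11 for spleen arrays 2, with none of the 15 probes among them.

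The values near the thresholds show how narrowly several probes entered the set. Just inside the minimum mean difference were ILMN_2540573 at 0.502, ILMN_1254967 at 0.506 and ILMN_1239795 at 0.517, and just outside were ILMN_1244536 at 0.496, ILMN_1212638 at 0.488 and ILMN_1224665 at 0.486. Just inside the gap of 0 were ILMN_2668124, ILMN_1257539 and ILMN_2874291, at 0.0054, 0.0091 and 0.03, and just outside were ILMN_1241612, ILMN_1243256 and ILMN_2969577, at -0.0066, -0.02 and -0.04. The probes with the largest mean difference among the 6 removed for their separation of Treg and Tconv arrays were ILMN_2898878, ILMN_1239725 and ILMN_2914036, at 0.70, 0.68 and 0.64.

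Each signal of these probes was the mean of 23 to 73 beads. The median standard error of a signal from its beads was 0.0685 log2 units. The gap was larger than the combined bead standard error of the 2 arrays that define it for 7 of the 15 probes, and larger than 2 such errors for 2, ILMN_3052501 and ILMN_1246744. This describes the values that chose the probes, covers the error of the beads and not that between samples, and carries no test. The pooled standard deviations within groups ran from 0.101 to 1.03.

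All 15 mean differences were above 0 on each of 5 scales, but the separation of the arrays was not. After background correction with the negative controls and quantile normalization the median difference was 1.05, and all 15 probes kept every spleen array above every BAT array. Both steps keep the order of the probes within an array, so this separation follows closely from the rule and is no separate check. With each array scaled to a common median without background correction the median difference was 0.36, and 3 probes, ILMN_2668124, ILMN_3052501 and ILMN_1221341, remained separated. After background correction and median scaling it was 0.47 with 1 separated probe, ILMN_2668124, and without normalization it was 0.31 with 1 separated probe, ILMN_3052501. The median difference of the 17395 tested probes moved from 0.06 to -0.16 between the quantile-normalized and the median-scaled values after background correction.

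Membership also depended on single arrays. When the 18 arrays were left out singly, 6 of the 15 probes passed the rule every time, namely ILMN_3052501, ILMN_1246744, ILMN_2561533, ILMN_1244894, ILMN_2668124 and ILMN_1237333. The other 9 were lost at least 1 time. ILMN_2540573, ILMN_1254967 and ILMN_1239795, which were nearest to the minimum mean difference, were lost 6 times each. The number of probes that passed ran from 11 to 34, and it was more than 1.5 times the 15 without spleen Treg 1 (34 probes), spleen Treg 3 (32 probes) or cold BAT Tconv 1 (28 probes). Without both spleen arrays numbered 3, 49 probes passed and 11 of the 15 were among them. With fewer arrays the separation of spleen from BAT is easier to meet, so a count can rise whatever the omitted arrays held. ILMN_2668124, which had passed with every single array left out, was then lost, as were ILMN_2874291, ILMN_2540573 and ILMN_1254967.

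Comparisons that were no condition of the rule, between Treg and Tconv cells of spleen and between cold and warm BAT, were then tested with limma on background-corrected, quantile-normalized log2 signals, in 1 fit over the 17395 probes detected on all 3 arrays of at least 1 group. Of the 15 probes 14 entered this fit, and ILMN_2668124 did not. A probe was called when it differed by over 2-fold with an adjusted p-value below 0.05. The rule used values of these same arrays. Its demand that every BAT array lie below every spleen array favors probes with little spread within a tissue, which can also limit the differences tested here. The rule further removed probes whose Treg and Tconv arrays stood apart in warm and in cold BAT. How far these conditions shaped the counts below was not tested, so the counts are not independent of the choice.

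The first question was whether Treg and Tconv cells of the spleen differed in these probes. None of the 14 was called, where 0.931% of all tested probes were. By unadjusted p-value under 0.05, 1 of 14 passed, where 11.5% of all tested probes did, and 1 of 14 had no overlap between the groups, where 11.8% of all did. The median Treg minus Tconv difference of the 14 was -0.09, against 0.01 over all tested probes, with 11 below 0 and 3 above. The share of all tested probes below 0 was not counted. The 95% interval lay within 2-fold in either direction for 11 of 14, so that a larger difference remained possible for ILMN_1222715, ILMN_1257539 and ILMN_2874291.

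The probe with the smallest p-value in this comparison was ILMN_1222715, with a mean of 8.54 in spleen Treg and 9.14 in spleen Tconv and a difference of -0.60 ± 0.20 (SE, limma, adjusted p = 0.243). ILMN_1257539 had a difference of 0.50 ± 0.25 (SE, limma, adjusted p = 0.478), with the higher mean in Treg. ILMN_2530127 had a difference of -0.27 ± 0.21 (SE, limma, adjusted p = 0.674). For ILMN_2874291 the spleen arrays numbered 3 set the scatter, and its difference of -0.94 had a 95% interval from -3.10 to 1.22.

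The next question was whether cold exposure changed these probes in BAT, where temperature and BeadChip cannot be told apart. In Treg cells none of the 14 was called, where 0.0862% of all tested probes were. By unadjusted p-value under 0.05, 2 of 14 passed, where 5.98% of all did, and 3 of 14 had no overlap, where 13.4% of all did. The median cold minus warm difference was 0.02, against -0.04 over all tested probes. ILMN_1222715 had the smallest p-value, with a mean of 7.91 in cold and 7.19 in warm BAT Treg and a difference of 0.72 ± 0.20 (SE, limma, adjusted p = 0.351). ILMN_1254967 had a difference of -0.57 ± 0.26 (SE, limma, adjusted p = 0.828), and ILMN_2530127 one of 0.33 ± 0.21 (SE, limma, adjusted p = 0.977). The 95% interval lay within 2-fold for 10 of 14.

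In BAT Tconv cells none of the 14 was called between cold and warm, where 0.00575% of all tested probes were. By unadjusted p-value under 0.05, 0 of 14 passed, where 4.37% of all did, and 2 of 14 had no overlap, where 13.7% of all did. The median cold minus warm difference was 0.13, against 0.01 over all tested probes. The smallest p-value was that of ILMN_1246744, with a mean of 10.23 in cold and 9.66 in warm BAT Tconv and a difference of 0.57 ± 0.28 (SE, limma, adjusted p = 1). Without warm BAT Tconv 1, the array that was low in this probe, the difference was 0.14. ILMN_1237333 and ILMN_1225488 followed, with differences of -0.26 ± 0.19 and 0.31 ± 0.24 (SE, limma, adjusted p = 1 for both). The 95% interval lay within 2-fold for 12 of 14.

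The rule removed probes by their BAT Treg and Tconv values, so every comparison built from the difference between these cells in BAT is given as a description. The cold responses of BAT Treg and BAT Tconv were set against each other in the same fit, where the BeadChip cancels. None of the 14 was called, and 0% of all tested probes were, while by unadjusted p-value under 0.05, 0 of 14 and 3.94% of all passed. The Treg minus Tconv difference in response was 0.56 ± 0.29 for ILMN_1222715, 0.41 ± 0.27 for ILMN_1237333 and -0.62 ± 0.47 for ILMN_3052501 (SE of the fit). The 95% interval lay within 2-fold for 7 of 14.

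Between Treg and Tconv cells of warm BAT none of the 14 was called, where 0.759% of all tested probes were. By their means 10 were lower in Treg, with a median difference of -0.19 against -0.03 over all tested probes. The largest of the 10 was that of ILMN_1222715, with a mean of 7.19 in warm BAT Treg and 7.88 in warm BAT Tconv. In cold BAT none was called, where 1.58% of all were, and 14 of 14 had a mean that was lower in Treg, with a median difference of -0.18 against -0.08 over all tested probes. The largest of these was that of ILMN_2561533, with a mean of 8.59 in cold BAT Treg and 9.23 in cold BAT Tconv. How many of all tested probes had a lower mean in Treg was not counted, so nothing is read from the counts of 10 and 14.

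For the tissue difference that defined the set, 7 of 14 probes were called lower in warm BAT than in spleen in Treg cells, where 0.857% of all tested probes were called lower, and 4 of 14 in Tconv cells, where 0.759% were. Against cold BAT the counts were 7 of 14 in Treg, where 1.81% were called lower, and 5 of 14 in Tconv, where 0.236% were. The comparisons within a cell type share their spleen arrays, and the choice of the probes fixed the direction, so nothing is read from these counts. ILMN_1237333 had means of 5.91 in warm BAT Treg, 6.07 in cold BAT Treg and 7.41 in spleen Treg on the background-corrected scale, and ILMN_3052501 had means of 6.68 in warm BAT Tconv, 6.78 in cold BAT Tconv and 8.63 in spleen Tconv.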

How the data were processed

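The authors deposited 1 table of mean bead intensity per probe and array from Illumina MouseWG-6 v2.0 BeadChips, described in the file headers as non-normalized. Also in the table the authors deposited detection p-values, the standard deviation of the bead intensity and the number of beads. A further 36 columns of outlier and bad bead numbers were not used. RNA was amplified from small inputs before hybridization. The study's methods name a two-tailed Student's test (p-value under 0.05) for its data in general. Its results and legends give a threshold of 2-fold for these arrays. Their normalization, and whether p-values were adjusted, are not given in the sources used here.

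The 15 probes were chosen on log2 signals, quantile-normalized without background correction. Tests used neqc (negative controls, offset 16) in limma 3.58.1 (R 4.3.3), probes detected (p-value below 0.05) throughout at least 1 group, a linear model with a mean for every group, 12 residual degrees of freedom, and Benjamini-Hochberg adjustment over all tested probes. The fit was tested on simulated data with larger shifts than these probes showed between Treg and Tconv or between cold and warm. It therefore says nothing on whether differences of their size would be called. Probes were named by a rule: the 10 largest mean differences, 3 on each side of each threshold, the 3 largest removed probes, and the called probes or else the 3 smallest p-values per comparison. Other probes were named after their values were seen, where a count was small or a value stood out. Members and lists were chosen with earlier results of these data known.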

Additional observations from a re-analysis of the deposited data

How the results depend on the processing

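The number of probes that passed the rule was 15. It was 46 on background-corrected signals, 2 with median scaling and 2 with a minimum difference of 1. Added after seeing the data, it was 49 without both spleen arrays numbered 3 and 1 without normalization. With single arrays left out it ran from 11 to 34, where fewer arrays make the separation condition easier to meet. Of the 14 tested probes, 0 were called in spleen Treg against Tconv, in cold against warm BAT Treg and Tconv, in the difference of these responses and in BAT Treg against Tconv, under each alternative run, with the replicate block (0 calls) among them; the methods' t-test was not run for the difference of the responses. The main fit did not pair samples by replicate number. Deviations of same-numbered arrays correlated at -0.00675 to 0.187, over 0.1 in 2 of 15 pairs, which cannot show whether such arrays shared mice. No BAT array was set against a spleen array in these pairs, although the study describes its warm BAT and spleen Treg cells as coming from the same mice. The counts of probes lower in warm BAT than in spleen, 7 in Treg and 4 in Tconv, fell to 1 and 2 without background correction, 0 and 2 with median scaling, 4 and 2 without a filter, 2 and 0 with the compared groups alone and 0 and 0 with the methods' t-test after adjustment. With single arrays left out they ran from 4 to 7 in Treg (4 without warm BAT Treg 1, spleen Treg 2 or spleen Treg 3) and from 2 to 5 in Tconv (2 without warm BAT Tconv 1). The cause of these changes was not tested. Signal over background limited ILMN_2668124 and ILMN_2874291 most, and 3 arrays per group limited every comparison. ILMN_1221341, ILMN_1237333 and ILMN_1254967 lay above the 95th percentile of the negative control probes on 7, 9 and 11 of 12 BAT arrays.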
